A study of Rattus norvegicus with 60 samples.

Results

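The starts of highly expressed genes were described in hippocampal CA1 tissue of rats, as 500 nt bins of a methylated-DNA capture experiment. A gene was included when its mean over 34 RNA libraries was at least 10 FPKM (fragments scaled to gene length and library size), and its bins were those that overlapped the 500 nt on either side of its start. The members were therefore selected on measured RNA levels, and the captured DNA played no part in the choice. Of 22865 genes with RNA values, 5556 were included, 5332 of them with a symbol. Each start took 3 bins, and the starts together held 16404 of 5805223 bins, or 0.283% of the genome's bins. Of these bins, 264 served more than 1 included gene, 628 also lay at the start of a gene at 0.1 to 10 FPKM and 36 at the start of a gene under 0.1 FPKM. For comparison, 9998 genes lay at 0.1 to 10 FPKM, with 29444 bins, and 7311 genes lay under 0.1 FPKM, with 21856 bins. The last are called silent genes here.

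The tissue came from Sprague-Dawley rats of 90 to 120 d. The labels name no genetic change or drug in any group. Naive, place and threat rats formed the groups of a study of contextual threat recognition training, sampled 1 h or 24 h later. The labels describe place and threat no further. In the RNA there were 9 naive libraries with no time given, 6 place and 8 threat libraries at 1 h, and 5 place and 6 threat libraries at 24 h. At each of 1 h and 24 h the DNA gave 3 naive, 4 place and 3 threat libraries captured with a methyl-binding domain protein, and 3 libraries of input DNA without capture. Nothing in the labels ties a replicate to an animal of its own, so the p-values cover the spread between libraries, part of which may be technical. In whole tissue, fewer cells of a type with methylated DNA and less methylation per cell cannot be told apart.

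The included genes had a median level of 21.5 FPKM, and 3603 lay at 10 to 30, 1531 at 30 to 100 and 422 at 100 FPKM or more. The highest was Apoe, the lipid carrier made by astrocytes, at 2113 FPKM. Just inside the limit stood Gabrb1 at 10.003, Poll at 10.004 and Ntmt1 at 10.013 FPKM, and just outside it Brd1 at 9.998 and the gene ENSRNOG00000032160 at 9.989 FPKM. Choosing by the median over libraries gave 5518 genes, of which 5497 were among the 5556. Leaving out RNA libraries rich in choroid plexus transcripts gave 5549, of which 5539 were among them. The 13 mitochondrial genes were listed at 0 FPKM and could not be included. Transcripts of CA1 pyramidal neurons were among those selected, 11 of the 14 listed genes found in the table, with Nrgn at 751, CAMK2A at 524 and Wfs1 at 114 FPKM.

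In vertebrate DNA, methyl groups sit mainly on cytosines that are followed by guanine. Many promoters of broadly used genes lie in CpG islands, stretches rich in CG that usually stay unmethylated, whereas CG elsewhere is mostly methylated. A methyl-binding domain protein retains fragments in proportion to their methylated CG, so a fragment without CG is lost just as an unmethylated one is. Some imprinted genes are an exception among promoters, since at these the copy from 1 parent is methylated and the other is not.

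The CG content of 7 starts, picked by hand, need not be typical of included genes. Their sequences are printed as examples of starts that differed in captured DNA. They are the 300 bases from 250 before to 50 after the start in the RefSeq annotation of build GRCr8, whose start can differ from that in the deposited table. The capitals mark CG, which reads the same on both strands, and 94.8% of 24206 RefSeq promoters of this length held at least 1 CG, with a median of 8. The first 4 starts gave less captured than input DNA at both times. Bsg encodes basigin, a surface protein of brain endothelium and other cells, Atp5b (Atp5f1b in RefSeq) the beta subunit of ATP synthase, Nrgn the calmodulin-binding postsynaptic protein neurogranin, and Sparc a secreted matrix protein. They held 35, 15, 14 and 3 CG.
Bsg: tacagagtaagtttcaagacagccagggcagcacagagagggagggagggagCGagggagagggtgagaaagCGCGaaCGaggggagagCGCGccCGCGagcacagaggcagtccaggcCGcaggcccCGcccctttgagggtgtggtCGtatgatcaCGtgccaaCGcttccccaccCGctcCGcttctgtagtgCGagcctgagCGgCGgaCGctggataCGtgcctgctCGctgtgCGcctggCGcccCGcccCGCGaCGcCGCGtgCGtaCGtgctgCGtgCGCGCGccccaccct
Atp5b: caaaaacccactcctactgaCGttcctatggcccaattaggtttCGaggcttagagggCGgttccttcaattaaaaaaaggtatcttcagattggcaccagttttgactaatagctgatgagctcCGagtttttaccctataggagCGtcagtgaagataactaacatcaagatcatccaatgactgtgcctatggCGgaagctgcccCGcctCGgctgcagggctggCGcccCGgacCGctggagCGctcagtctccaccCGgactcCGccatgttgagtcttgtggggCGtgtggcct
Nrgn: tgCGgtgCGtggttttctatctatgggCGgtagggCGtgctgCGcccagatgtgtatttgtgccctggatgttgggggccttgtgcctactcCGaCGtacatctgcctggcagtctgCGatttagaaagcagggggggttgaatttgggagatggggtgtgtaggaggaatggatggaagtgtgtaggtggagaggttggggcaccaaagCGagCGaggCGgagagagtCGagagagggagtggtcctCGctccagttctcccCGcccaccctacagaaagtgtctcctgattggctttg
Sparc: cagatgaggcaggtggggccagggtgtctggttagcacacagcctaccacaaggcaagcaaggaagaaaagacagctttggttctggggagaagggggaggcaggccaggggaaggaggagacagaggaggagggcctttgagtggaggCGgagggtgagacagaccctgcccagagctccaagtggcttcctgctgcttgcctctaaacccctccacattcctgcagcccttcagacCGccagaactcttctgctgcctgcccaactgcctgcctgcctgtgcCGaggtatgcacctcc
The other 3 gave more captured than input DNA at both times and held 17, 7 and 5 CG. Nap1l5 and Snurf are imprinted genes expressed in brain, and C1qb encodes a complement subunit made by microglia.
Nap1l5: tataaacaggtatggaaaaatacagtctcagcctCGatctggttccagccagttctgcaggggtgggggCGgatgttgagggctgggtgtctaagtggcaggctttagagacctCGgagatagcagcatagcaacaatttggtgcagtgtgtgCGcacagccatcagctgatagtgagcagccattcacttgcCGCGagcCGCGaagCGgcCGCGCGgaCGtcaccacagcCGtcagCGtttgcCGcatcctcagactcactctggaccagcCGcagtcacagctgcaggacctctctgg
Snurf: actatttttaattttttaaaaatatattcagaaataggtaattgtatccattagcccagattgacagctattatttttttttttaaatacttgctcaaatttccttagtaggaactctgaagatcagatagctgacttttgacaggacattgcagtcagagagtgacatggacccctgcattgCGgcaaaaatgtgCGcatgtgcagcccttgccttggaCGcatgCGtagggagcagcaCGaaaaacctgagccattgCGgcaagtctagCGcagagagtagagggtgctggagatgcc
C1qb: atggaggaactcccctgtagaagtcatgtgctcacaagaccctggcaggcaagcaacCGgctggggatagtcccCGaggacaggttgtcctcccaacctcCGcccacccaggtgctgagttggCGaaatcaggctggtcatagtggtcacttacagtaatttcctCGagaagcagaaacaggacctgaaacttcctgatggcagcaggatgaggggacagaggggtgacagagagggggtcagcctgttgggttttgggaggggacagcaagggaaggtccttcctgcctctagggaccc
In these sequences the counts of CG overlapped between the starts that gave less and those that gave more captured DNA, with Sparc at the bottom of the first set and Nap1l5 at the top of the second. On build GRCr8 the 3 printed starts with more captured DNA lie at chr4:89354655-89354954, chr1:120339104-120339403 and chr5:154407778-154408077, and the 4 with less lie at chr7:10650956-10651255, chr7:1099808-1100107, chr8:45452368-45452667 and chr10:40038767-40039066. All are on the minus strand except Atp5b. A count of CG over all included starts is void, because only 72.9% of included genes, and 46.8% of those with more captured than input DNA at both times, had a single promoter entry in the RefSeq table.

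Captured DNA was scarce at these starts. The signal was RPKM (reads scaled to bin length and library size), averaged over the 3 bins of a start. In the 10 captured libraries at 1 h the median included start lay between 0.015 and 0.033 RPKM, where 1 read over a start was worth 0.0149 to 0.0169 RPKM. In the 3 input libraries it lay between 0.347 and 0.372 RPKM. At 24 h the captured medians ran from 0.039 to 0.065 and the input medians from 0.235 to 0.243 RPKM. No captured library reached an input library at either time. The same held for the median over all bins. At 1 h that median was 0 to 0.0508 RPKM in captured and 0.2002 to 0.2146 RPKM in input libraries. At 24 h it was 0.146 to 0.196 RPKM in captured and 0.268 to 0.285 RPKM in input libraries. Captured medians below input are thus not particular to included starts. Starts with no read at all made up 26.1 to 43.3% of the included genes in each captured library at 1 h and 3.56 to 14.0% at 24 h, against at most 0.072% in any input library. At the other end, 4.79 to 6.57% of starts reached 1 RPKM in a captured library at 1 h and 0.180 to 1.19% at 24 h. The libraries held 31.4 to 39.9 M reads at 1 h and 42.2 to 59.5 M at 24 h.

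**Figure D1:**
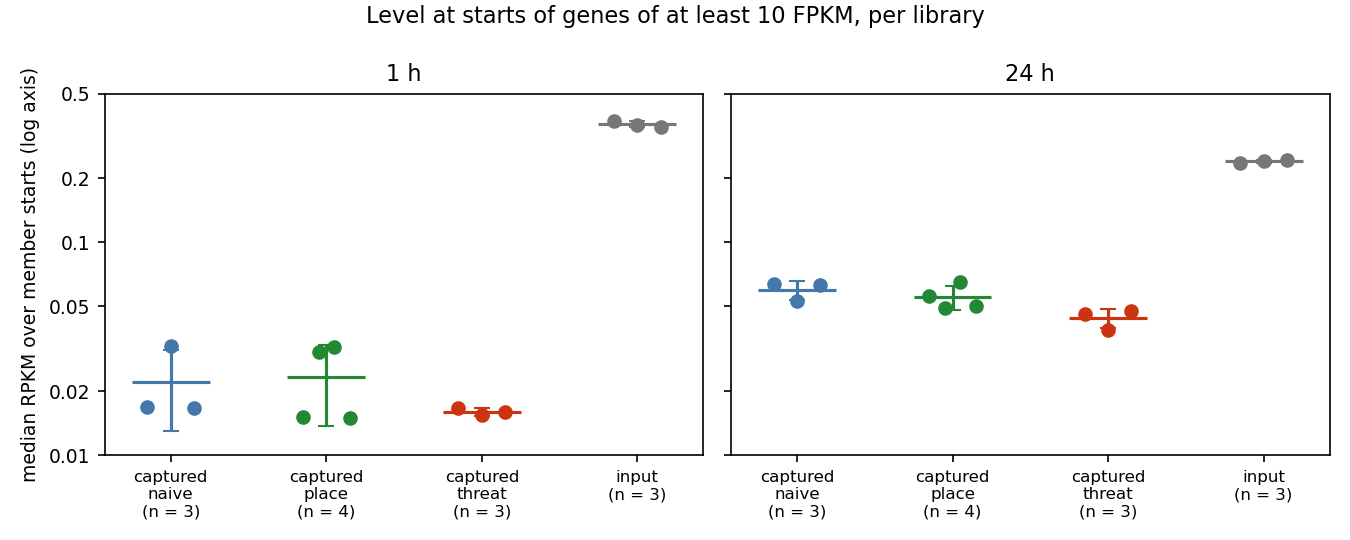
Median RPKM over gene starts in each of the 26 DNA libraries, by group and time, on a log axis, with lines for the mean and SD of each group. The captured libraries lie at 0.015 to 0.065 RPKM over included starts, and all input libraries lie at 0.235 RPKM or more.

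The scarcity was less marked at silent genes. Their median start held 0.117 to 0.184 RPKM in captured libraries at 1 h and 0.230 to 0.261 RPKM at 24 h, above the level at included starts in every captured library. In the input, silent starts were lower than included ones at 1 h, at 0.280 to 0.289 against 0.347 to 0.372 RPKM, and higher at 24 h, at 0.268 to 0.275 against 0.235 to 0.243 RPKM. The input thus changed its order between the 2 times. The mean over included starts was 1.36 to 1.44 times the mean of all bins in the input at 1 h and 0.879 to 0.902 times at 24 h. In captured libraries the same ratio was 0.660 to 0.821 at 1 h and 0.446 to 0.503 at 24 h. Captured and input libraries were therefore compared only within a time.

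Of the 5193 included starts with at least 0.1 RPKM as the mean of captured and input levels, 4220 were lower in captured than in input DNA at 1 h and 586 were higher, by limma on log2(RPKM + 0.25) at an adjusted p of 0.05. These were 81.3% and 11.3%, where 65.2% and 21.6% of all 20609 tested gene starts were called lower and higher. At 24 h, 3656 of 4792 were lower and 586 higher, or 76.3% and 12.2%, with 55.5% and 23.5% over all 20648 tested. The median log2 difference of included starts was -1.06 at 1 h and -0.65 at 24 h, against -0.78 and -0.34 over all starts and -0.19 and -0.02 over silent starts. The pseudocount shrinks these differences most where levels are low, so they understate the deficit of captured DNA.

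A start with little captured DNA passed the filter only through its input. Without any filter, all 5556 starts were tested. Then 4553 were lower and 588 higher at 1 h, or 81.9% and 10.6%, with 67.4% and 19.5% over all starts. At 24 h 4393 were lower and 584 higher, or 79.1% and 10.5%, with 58.6% and 21.2% over all starts. RPKM is relative to each library's reads, and captured and input libraries differ in kind, so the split depends on the scaling. With the median over the tested starts made equal between libraries, 2568 included starts were lower and 1272 higher at 1 h, or 49.5% and 24.5%, against 30.9% and 43.9% over all starts. At 24 h 2715 were lower and 951 higher, or 56.7% and 19.8%, against 34.9% and 39.3%. Under either scaling the share of included starts that were lower exceeded the share over all starts, and their median lay below that of all starts, by 0.28 at 1 h and 0.30 at 24 h on the log2 scale as deposited.

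Single bins gave like counts. At 1 h 11440 of 14297 tested bins at included starts were lower in captured DNA and 1435 higher, or 80.0% and 10.04%, and over all 3812500 tested bins 53.5% were lower and 20.6% higher. At 24 h 9303 of 13212 were lower and 1487 higher, or 70.4% and 11.3%, and over all 4935818 tested bins 38.5% and 21.1%. The median log2 difference at included starts was -1.10 at 1 h and -0.70 at 24 h, which was 0.59 and 0.52 below that of all tested bins. Bins at silent starts had medians of -0.33 and -0.06.

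The 2 times mostly gave the same call. Of the 5556 starts, 3375 were lower in captured than in input DNA at both times and 470 were higher at both. Another 961 were not tested at 1 or both times, 166 of them at neither, and the remaining 750 had other combinations. Of these, 16 starts were higher at 1 h and lower at 24 h, and 22 were lower at 1 h and higher at 24 h. Without a model, every captured library lay below every input library at 4343 starts (78.2%) at 1 h and 3933 (70.8%) at 24 h, and above every input library at 491 (8.84%) and 392 (7.06%). The same counts at silent starts were 41.5% and 25.1% below and 23.7% and 23.0% above. No read fell on 171 included starts in any captured library at 1 h, and on 1 at 24 h.

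**Figure D2:**
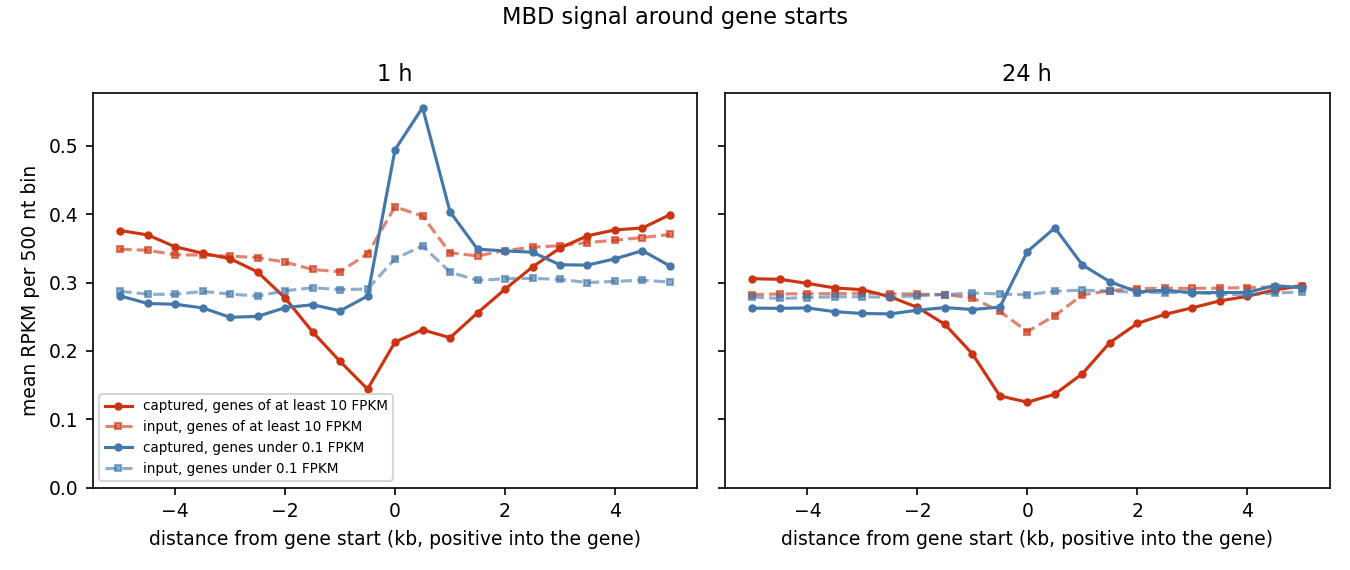
Mean RPKM of captured and input libraries in 500 nt bins by distance from the gene start, for included and silent genes at 1 h and 24 h. At included genes captured DNA falls below input around the start, with a captured to input ratio of 0.519 at 1 h and 0.548 at 24 h in the bin at the start, and ratios of means of 1.08 and 1.00 at 5 kb downstream.

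In mean signal the deficit was deepest near the start. At 1 h the mean captured signal over included genes was 0.376 RPKM at 5 kb upstream, 0.144 in the bin 500 nt upstream, 0.213 at the start and 0.231 at 500 nt downstream. Input in the same bins was 0.349, 0.342, 0.411 and 0.397 RPKM. The ratio of captured to input was therefore 1.08 at 5 kb upstream, 0.422 just upstream of the start, 0.519 at the start and 1.08 again at 5 kb downstream. At 24 h the ratio was 1.08, 0.521, 0.548 and 1.00 at the same places, with 0.125 RPKM captured and 0.228 RPKM in the input at the start. The lowest of these ratios lay just upstream of the start at both times. Silent genes showed no such dip, with ratios at the start of 1.48 at 1 h and 1.22 at 24 h. The median start, in contrast, stayed below input at 5 kb. At 1 h it held 0.101 RPKM captured against 0.290 in the input at 5 kb upstream and 0.0947 against 0.316 at 5 kb downstream, with 0.00989 against 0.386 at the start itself. At 24 h these were 0.25 against 0.286, 0.221 against 0.295 and 0.0253 against 0.225 RPKM. The return of the mean ratio to 1 was thus not seen at the typical gene at 1 h. These are means and medians over genes, with no test.

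**Figure D3:**
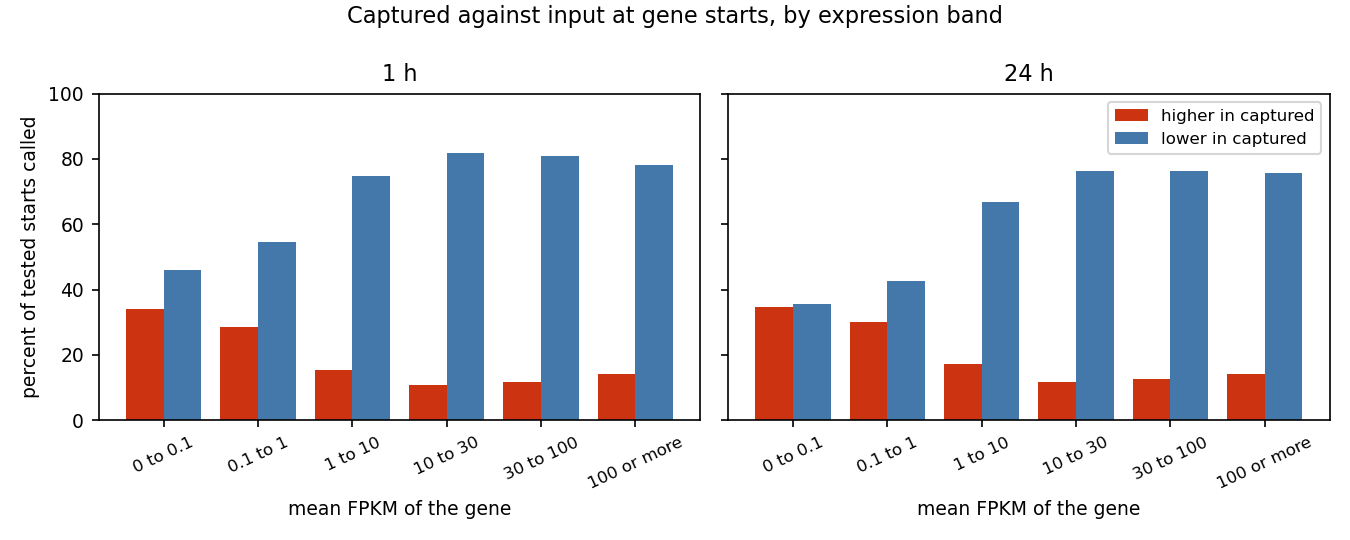
Percent of tested gene starts that were higher or lower in captured than in input DNA, by band of mean FPKM, at 1 h and 24 h. The share lower rises from 46.1% under 0.1 FPKM to 81.9% at 10 to 30 FPKM at 1 h, and is 78.0% at 100 FPKM or more.

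The shares changed with the RNA level up to 10 FPKM and lay close together above it. From the lowest to the highest of 6 bands (limits 0.1, 1, 10, 30 and 100 FPKM), the share of tested starts lower in captured DNA at 1 h was 46.1%, 54.6%, 74.7%, 81.9%, 80.7% and 78.0%. At 24 h it was 35.5%, 42.5%, 66.7%, 76.4%, 76.2% and 75.7%. The share higher was 33.96%, 28.6%, 15.3%, 10.7%, 11.9% and 14.3% at 1 h and 34.7%, 30.2%, 17.4%, 11.9%, 12.6% and 14.1% at 24 h. The last 3 bands are the included genes. Among them the share higher was lowest in the band of 10 to 30 FPKM at both times. These shares were not tested against each other.

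The 470 starts with more captured than input DNA at both times were often short gene models. Of them 44.9% spanned under 2000 nt, against 9.47% of all included genes and 4.15% of the 3375 starts that were lower at both times. A symbol was missing for 23.8%, against 4.03% and 0.770%. Their median span was 3818 nt, against 17025 nt over all included genes, while their median RNA level was 23.3 against 21.5 FPKM. By span, 211 of 526 included genes under 2000 nt were higher at both times (40.1%), 76 of 1464 at 2000 to 10000 nt (5.19%), 111 of 2402 at 10000 to 50000 nt (4.62%) and 72 of 1164 at 50000 nt or more (6.19%). With the 526 shorter models left out, 352 starts were higher and 4021 lower at 1 h and 348 and 3491 at 24 h. Short models can be processed copies or partial models whose recorded start is not the transcript's, and reads of near-identical copies may be split between them. The part of either in these calls was not tested, and a comparison of spans with RefSeq lengths is void, since only 68.1% of the 470 had a RefSeq length.

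The largest differences were at genes of varied function. Gnaz, which encodes an inhibitory G protein alpha subunit of neurons, stood first (chr20:16776281-16801749, minus strand, rn5). Its start held from 5.27 to 8.08 RPKM in the 10 captured libraries at 1 h, with a median of 6.33, and 0.615 to 0.774 RPKM in the input. At 24 h it held 1.00 to 1.75 RPKM against 0.170 to 0.330. Captured and input libraries did not overlap at either time, and the log2 differences were 2.82 (SE 0.12) and 1.65 (SE 0.12). Drosha, the nuclease of microRNA maturation (chr2:81692861-81796037), held 3.76 to 5.67 RPKM captured against 0.687 to 1.23 at 1 h, a log2 difference of 2.10, and 1.21 at 24 h. Pcdhga12, a clustered protocadherin of neuronal surfaces (chr18:30608069-30660582), held 1.64 to 2.60 against 0.275 to 0.372 RPKM at 1 h, with differences of 2.08 and 1.08. Both starts stood apart from input in every library. The others of the 10 highest by the mean of both times were Gnas, RGD1307526, Nol6, Extl3, RASL2-9, Diras2 and Rnf220, with log2 differences of 1.77 to 2.19 at 1 h and 0.82 to 1.28 at 24 h.

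**Figure D4:**
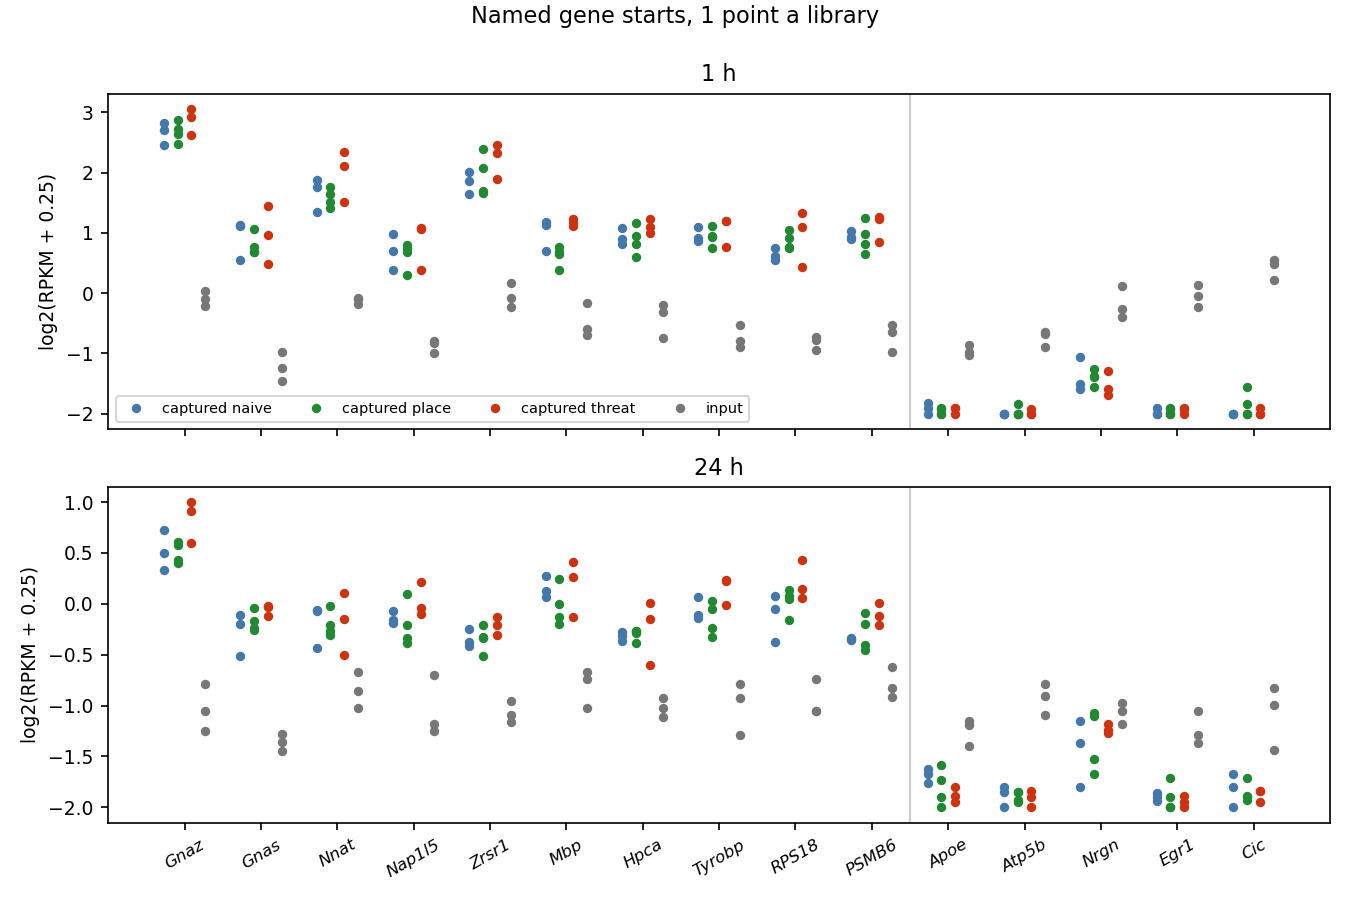
log2(RPKM + 0.25) at the starts of named genes at 1 h and 24 h, 1 point a library, for captured naive, place and threat and for input libraries. The 10 genes left of the line have captured points above input, Gnaz the farthest, and the 5 on the right have captured points below it, except for Nrgn at 24 h, where they overlap.

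The lowest differences belonged to starts with almost no captured reads. Cic, a transcriptional repressor (chr1:83415622-83427167), had no read in 7 of 10 captured libraries at 1 h and at most 0.092 RPKM, against 0.908 to 1.22 RPKM in the input, with log2 differences of -2.35 (SE 0.11) at 1 h and -0.77 (SE 0.08) at 24 h. DPF1, a subunit of neuronal chromatin remodelling complexes, held 0.0149 to 0.0847 RPKM captured against 0.989 to 1.25 in the input at 1 h. The other 3 of the 5 lowest were Nudt16l1, Apbb3 and the calcium-dependent kinase gene Camk1, with differences of -1.88 to -1.99 at 1 h and -0.96 to -1.14 at 24 h. The genes of highest RNA level were spread over all outcomes. Apoe held 0 to 0.034 RPKM captured against 0.240 to 0.302 at 1 h and was lower at both times, at -0.98 and -0.54. Cst3, encoding a secreted protease inhibitor, at 1129 FPKM, and Zwint, a kinetochore protein gene, at 1015.5 FPKM, were also lower at both times, although Cst3 stood at 0.36 at 1 h with equal medians. Mbp, the myelin basic protein gene, at 1304 FPKM, was higher at both, and the ubiquitin gene UBB, at 998 FPKM, was called at neither time.

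Of the 14 gene lists examined, that of imprinted genes had the largest share of starts above input at both times as deposited, 42.1%. With equal medians it stood at 52.6%, below the 77.8% of the microglial list. Among the 19 imprinted genes included, 8 were higher in captured DNA at both times and 9 lower at both, and the list's median log2 difference was -0.08 at 1 h and 0.32 at 24 h, against -1.06 and -0.65 over all included starts. With equal medians 10 were higher and 3 lower at both times, where all included starts gave 866 and 1895. The short gene model Gnas (ENSRNOG00000047374, chr3:178489204-178490283), at the locus of the stimulatory G protein alpha subunit, held 1.15 to 2.48 RPKM captured against 0.114 to 0.261 at 1 h, a log2 difference of 2.12 (SE 0.17), and 1.19 (SE 0.11) at 24 h. Zrsr1, a splicing factor gene, held 2.86 to 5.25 against 0.601 to 0.868 RPKM at 1 h, with differences of 2.06 and 0.77. Nnat, encoding neuronatin, a membrane protein of developing neurons, held 2.29 to 4.81 against 0.629 to 0.694 RPKM, with 1.87 and 0.66. At all 3 starts captured and input libraries were apart at both times.

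The printed Nap1l5 sequence belongs to a gene of the nucleosome assembly protein family (chr4:153970373-153972240 in rn5). Its start held 0.989 to 1.86 RPKM captured against 0.254 to 0.330 at 1 h and 0.518 to 0.909 against 0.169 to 0.367 at 24 h, with log2 differences of 1.59 and 0.94. Snurf, whose transcript also encodes the splicing protein SmN (chr1:202123032-202145397 in rn5), held 1.36 to 2.36 against 0.247 to 0.320 RPKM at 1 h, with differences of 1.89 and 0.55. A second record named Snurf, of 216 nt on chromosome 17, held 0.164 to 0.519 RPKM captured at 1 h, overlapping its input, and was not called then. Impact, a translational regulator gene, held 1.64 to 3.09 against 0.615 to 0.728 RPKM, with 1.47 and 0.34. Captured DNA at Nap1l5, Snurf on chromosome 1 and Impact exceeded every input library at both times.

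Over all included starts 60.7% were lower and 8.46% higher at both times, and the share lower was 87.5% for the proteasome and, nearer to that background, 69.0% for the respiratory chain. Of 32 proteasome subunit genes, 28 were lower in captured DNA at both times and 1 was higher, with medians of -1.08 and -0.76 (1 higher and 15 lower with equal medians). Psmc5, an ATPase of the regulatory particle, held at most 0.031 RPKM captured against 0.426 to 0.529 at 1 h. The exception, PSMB6, is recorded as a model of 717 nt and held 1.31 to 2.16 against 0.261 to 0.443 RPKM. Of 87 subunits of the respiratory chain and ATP synthase, 60 were lower at both times and 7 higher (8.05%), with medians of -1.06 and -0.73 (9 higher and 34 lower with equal medians). Atp5b (chr7:2484095-2490338 in rn5), printed above, had no read in 8 of 10 captured libraries at 1 h, at most 0.031 RPKM against 0.289 to 0.386, and differences of -1.23 and -0.97. Cox4i1, a subunit of cytochrome oxidase, was likewise without a read in 8 of 10. Ndufs6, a complex I subunit whose model spans 415 nt, held 1.09 to 2.36 RPKM captured against 0.215 to 0.320, with 1.82 and 0.84. Uqcr10, Ndufv3, NDUFB4, Uqcrb and Ndufa8 were also higher at both times, by 0.58 to 1.62 at 1 h.

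Starts of cytosolic ribosomal protein genes were split. Of 105 included, 41 were lower and 23 higher at both times (21.9%, against 8.46% of all included starts), and the medians were -0.29 at 1 h and -0.36 at 24 h. With equal medians the direction turned, with 39 higher and 14 lower at both times and medians of 0.59 and 0.01. RPS29, recorded as 171 nt on chromosome 3, held 1.20 to 1.84 RPKM captured against 0.234 to 0.329 at 1 h, with a log2 difference of 1.68 (SE 0.12), and 0.99 (SE 0.12) at 24 h. RPS18 differed by 1.63 and 0.99, Rps20 by 1.60 and 0.94, Rpl8 by 1.66 and 0.89, Rpl12 by 1.77 and 0.71, and RPL37 by 1.44 and 0.94. All 6 models spanned under 1000 nt, as 171, 541, 505, 840, 726 and 368 nt in that order. Ribosomal protein genes have many near-identical processed copies in mammals, so both the RNA level of a copy and the start it gives are uncertain. Of the 3 with the highest RNA level, RPS7 was higher at both times and RPS27A, at 297 FPKM, was higher by 0.42 and 0.30, with captured and input libraries overlapping. With 1000 nt on either side of the start, RPS27A stood at -0.055 and -0.0016. Rpl41 was not tested at 1 h and not called at 24 h.

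Markers of most cell types were lower at both times in shares of 45.5 to 75%, around the 60.7% of all included starts, and their balance depended on the scaling. Among 11 CA1 pyramidal genes, 5 were lower (45.5%) and 3 higher (27.3%) at both times (1 and 3 with equal medians). Nrgn (chr8:40015873-40024017 in rn5) held 0.0617 to 0.228 RPKM captured against 0.507 to 0.838 at 1 h, a difference of -1.25 (SE 0.14), and overlapped its input at 24 h, with -0.27 (SE 0.12), a sign that turned to 0.10 with equal medians. CAMK2A, the alpha subunit of the calcium-dependent kinase of synapses, was lower at -1.06 and -0.59. The 3 higher genes were Hpca, encoding the calcium sensor hippocalcin, Mpped1, a metallophosphoesterase gene, and Wfs1, encoding wolframin of the endoplasmic reticulum. Their captured levels at 1 h were 1.27 to 2.10, 1.88 to 3.13 and 1.47 to 2.50 RPKM, and their log2 differences 1.39, 1.74 and 1.09 at 1 h and 0.73, 0.80 and 0.59 at 24 h. Captured and input libraries were apart at all 3, at both times, although these are among the genes by which CA1 neurons are recognised.

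Interneuron genes were lower in 6 of 8, or 75% (3 with equal medians), and higher in 1 (2 with equal medians) at both times. The neuropeptide genes Cck and Sst were lower at both times, although Sst stood at 0.17 at 1 h with equal medians. For oligodendrocytes 9 of 15 were lower (60.0%) and 1 higher at both times, and with equal medians 4 and 6. The 1 higher as deposited was Mbp (chr18:78473296-78504226), with 1.06 to 2.10 RPKM captured against 0.371 to 0.644 at 1 h and 0.620 to 1.08 against 0.242 to 0.380 at 24 h, log2 differences of 1.42 (SE 0.14) and 0.91 (SE 0.12). Cnp, another myelin gene, was lower at -0.99 and -0.68, although with 1000 nt on either side of the start it stood at 0.20 at 1 h. Of 14 astrocyte genes 7 were lower (50%) and 0 higher at both times, and with equal medians 2 and 2.

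Microglial genes gave equal calls at 1 h and more higher than lower calls at 24 h. Of 9 included, 3 were higher and 3 lower at 1 h and 3 and 1 at 24 h, and 3 were higher and 1 lower at both times, with medians of -0.13 and 0.10. With equal medians 7 were higher and 0 lower at both times, with medians of 0.75 and 0.47. Tyrobp, the signalling adaptor of microglial receptors, held 1.43 to 2.05 RPKM captured against 0.286 to 0.440 at 1 h and 0.550 to 0.923 against 0.160 to 0.327 at 24 h, with differences of 1.72 and 0.98. Csf1r, the receptor on which microglia depend, differed by 0.79 and 0.37. C1qb (chr5:159008941-159014494 in rn5) held 0.690 to 0.989 against 0.360 to 0.577 RPKM at 1 h, with differences of 0.64 and 0.33, and overlapped its input at 24 h. The protease gene Ctss and the complement gene C1qa were called at neither time. Among 6 endothelial and mural genes 3 were lower (50%) and 0 higher at both times, and 1 and 1 with equal medians. The 3 were Sparc (chr10:40573518-40595276 in rn5), with 0.0149 to 0.195 RPKM captured against 0.453 to 0.515 at 1 h, Bsg (chr7:13044573-13051789 in rn5), without a read in 5 of 10 captured libraries at 1 h, and the tight junction gene Cldn5.

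Synaptic genes gave no excess of starts below input over the 60.7% of all included starts. Of 22 genes of vesicle release 11 were lower (50%) and 2 higher (9.09%) at both times, and of 24 of the postsynaptic density 10 (41.7%) and 3 (12.5%). With equal medians these were 4 and 4 and 3 and 3. Of the 24, 9 were not tested at 24 h. Vamp2, a vesicle SNARE, held 0.0149 to 0.0489 RPKM captured against 0.632 to 0.961 at 1 h, a log2 difference of -1.99 (SE 0.10), and was not tested at 24 h. Snap25, its partner in fusion, was lower at 1 h at -0.33 and not called at 24 h, and with equal medians its sign at 1 h turned to 0.55. The higher ones were the vesicle glycoproteins Sv2a, by 1.77 and 0.80, and Sv2b, by 0.89 and 0.57, and the scaffold genes Homer3, Dlgap1 and Dlgap3, by 0.74 to 1.10 at 1 h. Sv2a held 1.27 to 2.31 RPKM captured against 0.220 to 0.358 at 1 h, with no overlap at either time.

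Of 14 immediate early and activity-regulated genes 9 were lower (64.3%, near the 60.7% of all included starts) and 0 higher at both times, with medians of -1.24 and -0.65 (5 and 2 with equal medians). Egr1, a transcription factor induced by synaptic activity, held at most 0.0169 RPKM in any captured library at 1 h against 0.605 to 0.844 in the input, and Jund, an AP-1 factor, had no read in 9 of 10. Neither was tested at 24 h. Sgk1, a kinase gene, was called at neither time. Genes of DNA methylation and its removal were few, 5 of 18, of which 2 were lower and 0 higher at both times on either scale. Apex1, the base-excision endonuclease, had no read in 10 of 10 captured libraries at 1 h, against 0.286 to 0.440 RPKM in the input, and 0 to 0.0654 against 0.206 to 0.381 RPKM at 24 h. Mbd3, of the methyl-binding domain family, had no read in 7 of 10 captured libraries at 1 h.

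The X chromosome held 172 of the included genes. There both captured and input signal were lower than elsewhere, with a median input of 0.164 against 0.371 RPKM at 1 h and 0.141 against 0.248 at 24 h, and a median captured signal of 0.00962 against 0.0204 and 0.0280 against 0.0531. Only 80 of the 172 starts (46.5%) passed the filter at 1 h and 56 (32.6%) at 24 h, against 95.0% and 88.0% on other chromosomes. Of those tested on X, 14 were higher and 53 lower at 1 h, and 12 higher and 26 lower at 24 h. At both times 11 were higher and 12 lower, or 6.40% and 6.98% of the 172. Over all included starts these shares were 8.46% and 60.7%. Of the 172, 134 were not tested at 1 or both times, so the both-time counts leave most of X out. Syp and Ogt on X were tested at neither time.

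Naive, place and threat libraries were then compared within the captured DNA at each time. Over the 3 bins of a start, 1456 included starts at 1 h and 1775 at 24 h reached 0.1 RPKM and were tested, and 0 were called in any of the 6 contrasts by limma, nor by edgeR on the recovered reads. At an unadjusted p under 0.05 there were 163 for threat against naive, 54 for place against naive and 113 for threat against place at 1 h, and 143, 82 and 206 at 24 h. These were 11.2%, 3.71% and 7.76% of included starts at 1 h, where all tested starts gave 11.8%, 4.13% and 8.33%. At 24 h they were 8.06%, 4.62% and 11.6%, against 10.1%, 5.06% and 13.2%. The shares at included starts were thus near those at all starts. Over all tested starts the calls at 1 h were 0.0207% higher and 0.0103% lower for threat against naive, 0% either way for place against naive, and 0.0103% either way for threat against place. At 24 h the 1 call, 0.00792%, was for threat above place, and all other directions stood at 0%. On counts simulated at the libraries' depth for threat against naive, over all 9672 starts tested at 1 h and 12621 at 24 h, limma recovered 100% of 4-fold changes at both times and 52% of 2-fold changes at 1 h and 46% at 24 h, with 8 false calls at each time. Each rate rests on 100 starts given a change, all drawn from those of at least 0.5 RPKM captured. The spread between simulated libraries was set in advance, not estimated from the data. Recovery at tested starts below 0.5 RPKM, at included starts alone and in the other contrasts was not tested. Without threat replicate 3 at 1 h, 11 included starts were called for threat against naive and 4 for threat against place. The share over all starts was not counted in that refit.

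The starts of lowest p in each contrast were read as values, not as changes. For threat against naive at 1 h, Kcnip1, encoding a potassium channel interacting protein, held 0.652 to 1.01 RPKM in threat, 0.254 to 0.435 in naive and 0.259 to 0.895 in place libraries, with a log2 difference of 0.79 and an adjusted p of 0.192. For place against naive at 24 h, Arf3, a small GTPase gene, held 0.056 to 0.118 RPKM in place, 0.226 to 0.255 in naive and 0.101 to 0.180 in threat libraries, with -0.59 and an adjusted p of 0.168. For threat against naive at 24 h, Shf, an adaptor protein gene, held 0.146 to 0.395 in threat, 0.582 to 0.594 in naive and 0.289 to 0.401 in place libraries, with -0.67 and an adjusted p of 0.212. The naive libraries stood above both other groups at Shf and at Arf3. The lowest adjusted p among the 6 contrasts was 0.0688, for ENSRNOG00000050166 in threat against place at 24 h, with 1.18 to 1.26 RPKM in threat and 0.606 to 0.964 in place libraries and a log2 difference of 0.57. Drosha had 0.777 to 0.809 in threat and 0.303 to 0.624 in place libraries, a difference of 0.54.

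Other starts of lowest p at 1 h were Dusp3, a phosphatase gene, with a difference of 0.96 for threat and 0.86 for place against naive, and Adora1, the adenosine A1 receptor gene, with 0.68 for threat against place. At Dusp3 the naive libraries ran from 0.0167 to 0.718 RPKM and overlapped both other groups. At 24 h they included Nomo1, with -0.59 for threat and -0.41 for place against naive, and Chrm1, the muscarinic M1 receptor gene, with -0.45 for place against naive. These 2 contrasts share their naive libraries. A test of whether a contrast differed between 24 h and 1 h was run over 9248 starts, 1292 of them included. It called 0 in each of the 3 contrasts by limma. Of the 1292, an unadjusted p under 0.05 was reached by 46 for threat against place. It was reached by 73 for threat against naive and by 56 for place against naive. The share over all 9248 starts was not counted, so nothing is drawn from these counts.

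Among single bins with at least 1 RPKM captured and 2 times the input, a few at included starts were called. At included starts 823 such bins were tested at 1 h and 146 at 24 h. For threat against naive 0 were called at either time by limma or edgeR with all libraries, and for place against naive 0 as well. At an unadjusted p under 0.05 there were 141 and 30 for threat against naive, or 17.1% and 20.5%, where all tested bins gave 15.4% and 23.1%. For place against naive there were 38 and 3, or 4.62% and 2.05%, where all gave 3.34% and 4.28%. The 0 for threat against naive changed when single libraries were left out. Then 25 bins at included starts were called at 1 h without threat replicate 3 and 1 without place replicate 4, and at 24 h 4 without threat replicate 1, 2 without threat replicate 3 and 1 without naive replicate 1. The share over all tested bins was not counted in these refits, so whether the counts are particular to included starts cannot be said. Over all tested bins, threat against naive gave 0.0146% higher and 0.00143% lower at 1 h, and 0.0105% and 0% at 24 h. Place against naive gave 0.00171% and 0.00114% at 1 h, and 0.0082% and 0% at 24 h. For threat against place 2 included bins were higher at 1 h, or 0.243% where all bins gave 0.0166% higher and 0.000856% lower. At 24 h 9 were higher, or 6.16%, where all bins gave 7.69% higher and 0.00469% lower. The share at 24 h was therefore near that of captured bins anywhere.

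Both bins called at 1 h belonged to 1 gene without a symbol, ENSRNOG00000047746 (chr1:13553119-13558222, rn5), at 256 FPKM. In the bin chr1:13553001-13553500 the threat libraries held 24.7, 19.1 and 15.2 RPKM, the place libraries 9.37, 10.4, 14.1 and 12.2, the naive libraries 16.8, 18.7 and 19.1, and the input 4.60 RPKM on average. Threat and place libraries did not overlap there, and naive libraries lay within the threat range. The log2 difference was 0.75 (SE 0.15) with an adjusted p of 0.0403. In the next bin it was 0.75 (SE 0.15) with an adjusted p of 0.0482, and threat and place overlapped. The input means of these bins, 4.60 and 4.46 RPKM, were far above the usual input. Over included starts the mean was 0.375 to 0.397 RPKM in input libraries at 1 h. The reason for the high input was not tested. Neither bin was called with equal medians, nor without naive replicate 2, place replicate 2, threat replicate 1 or threat replicate 2. Only 1 was called without naive replicate 3 or place replicate 1, while 4 bins at included starts were called without place replicate 4 and 12 without threat replicate 3. Shares over all bins in these refits were not counted.

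**Figure D5:**
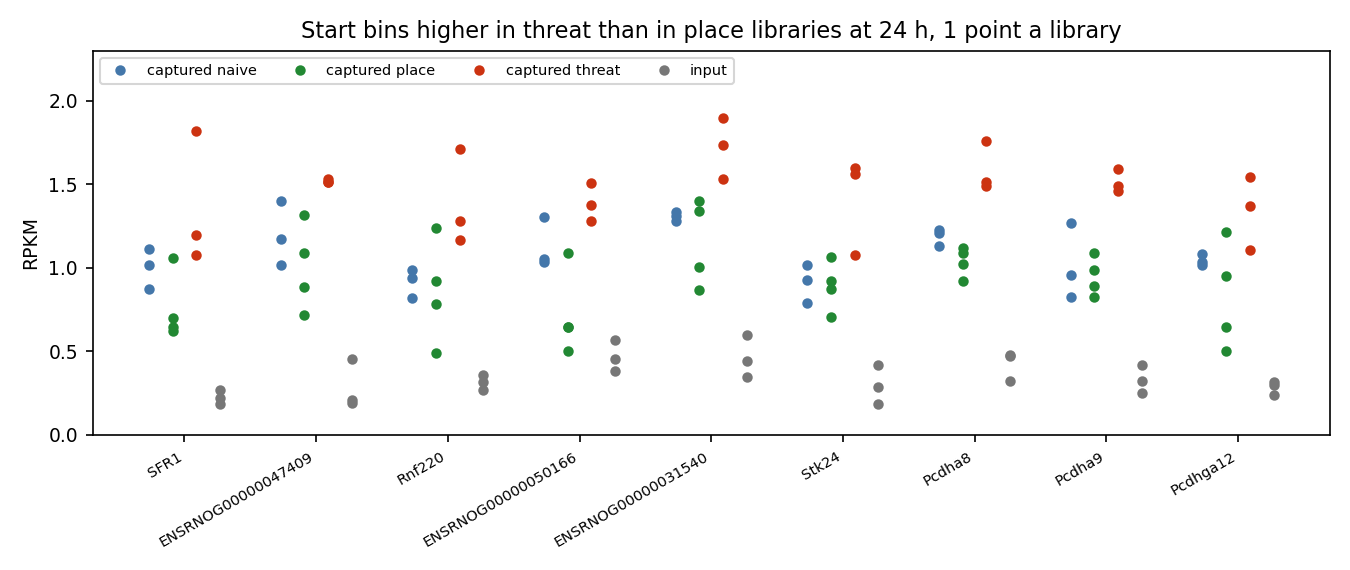
RPKM in each captured and input library of the 9 bins at included starts called for threat against place at 24 h, by group. Threat libraries lie at 1.08 to 1.90 RPKM and place libraries at 0.493 to 1.402 RPKM, and the groups do not overlap in 7 of the 9 bins. The bins were picked by this contrast, and some passed the 1 RPKM filter only through threat libraries. The separation is therefore partly set by that choice.

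The 9 bins called at 24 h lay at the starts of SFR1, Rnf220, Stk24, Pcdha8, Pcdha9, Pcdhga12 and 3 genes without a symbol. At the bin of Pcdha9, a clustered protocadherin (chr18:29702001-29702500), the threat libraries held 1.49, 1.46 and 1.59 RPKM, the place libraries 0.895, 0.826, 1.09 and 0.985, and the naive libraries at most 1.27 RPKM. Threat libraries were above all others there, with a log2 difference from place of 0.56 (SE 0.16) and an adjusted p of 0.0371. Pcdha8 (chr18:29697001-29697500) held 1.49, 1.52 and 1.76 RPKM in threat against 0.924 to 1.12 in place and 1.13 to 1.23 in naive libraries, a difference of 0.51 (SE 0.15). Pcdhga12 (chr18:30608501-30609000) held 1.11 to 1.54 against 0.502 to 1.21 in place libraries, with an overlap, a difference of 0.60 (SE 0.18). These 3 are genes of the protocadherin clusters, whose members share closely related sequences and near neighbours, so they are not independent.

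At Stk24, a protein kinase gene (chr15:110072501-110073000), threat libraries held 1.08 to 1.60 RPKM and place libraries 0.708 to 1.06, with a difference of 0.54 (SE 0.17). At Rnf220, a ubiquitin ligase gene (chr5:140134501-140135000), they held 1.17 to 1.71 and 0.493 to 1.24, with 0.59 (SE 0.19). SFR1, of a DNA recombination complex (chr1:274916001-274916500), held 1.08 to 1.82 in threat and 0.620 to 1.06 RPKM in place libraries, with 0.68 (SE 0.18). The 3 without a symbol, ENSRNOG00000050166, ENSRNOG00000047409 and ENSRNOG00000031540, differed by 0.79, 0.52 and 0.51. In 7 of the 9 bins threat and place libraries were apart, and in 7 of 9 threat and naive libraries were apart. The bins were picked for high threat values, so both counts are partly set by that choice. The filter of 1 RPKM was also a mean that included the threat libraries. Bins such as those of Rnf220 and Stk24 reached it only through them. Their naive means were 0.916 and 0.912 RPKM and their place means 0.860 and 0.892 RPKM. The share apart over all tested bins was not counted.

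The calls at 24 h came with differences over whole captured libraries. Over the tested bins at 24 h, those of at least 1 RPKM and 2 times the input, the median log2 difference of threat from place was 0.28. Over the included bins among them it was also 0.28, with 0.23 and 0.26 for threat from naive. These shifts were not seen over bins of at least 0.1 RPKM. There the medians were -0.031 over all and 0.025 over included bins for threat from place, and -0.023 and 0.021 for threat from naive. The threat libraries at 24 h had more included starts at 1 RPKM or above, 0.540 to 1.19% against 0.180 to 0.432% in place and 0.252 to 0.396% in naive libraries. They also had a lower median over all bins, 0.146 to 0.171 RPKM against 0.177 to 0.196 and 0.188 to 0.191. With the medians of the tested bins made equal between libraries 0 of the 9 bins were called. With bins tested from 0.1 RPKM upward and no input criterion, 2 were called at 24 h, at ENSRNOG00000050166 and at Drosha (chr2:81796501-81797000), where threat libraries held 0.991 to 1.38 and place libraries 0.189 to 0.727 RPKM. Without place replicate 3, without place replicate 4 or without threat replicate 2, 0 bins were called at 24 h. There were 2 without place replicate 2, 3 without threat replicate 1, 5 without naive replicate 2 and 22 without place replicate 1. Shares over all bins in these refits were not counted.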

How the data were processed

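RNA of 34 libraries and DNA of 26 libraries were measured. The RNA values were deposited by the authors as FPKM per gene, from polyA+ directional libraries per the labels. The DNA values were deposited by the authors as RPKM, a signal per 500 nt bin, from MethylMiner capture per the labels' protocols. Per the submitters' processing notes Bowtie, TopHat 1.4.0, edgeR and DESeq2 were used; rn5 and mm10 are both listed as builds, with no roles given. The table is titled GRCm38, but its chromosome 1 ends at 290094216, as in rat rn5, so positions are given in rn5.

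From these values whole reads were recovered for 100.0% of values within 0.1 read. The 21 shorter bins were left out. Captured and input libraries of a time entered 1 limma fit with trend (limma 3.58.1, R 4.3.3) on log2(RPKM + 0.25), over all bins or over all gene starts (mean of 3 bins) with at least 0.1 RPKM as the mean of both kinds. The group contrasts used captured libraries only, at starts of at least 0.1 RPKM captured or bins of at least 1 RPKM and 2 times the input. Adjusted p-values are Benjamini-Hochberg over all features tested, with a threshold of 0.05. edgeR 4.0.16 (quasi-likelihood) on recovered reads was an alternative, with others given in the closing section. The fits were tested on simulated data. Intervals of SD and SE do not cover PCR duplicates, since reads without molecular identifiers are not independent molecules.

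Genes were named by a rule: the 10 highest and 5 lowest starts called at both times, the 5 of lowest p in each group contrast, the 3 genes on each side of 10 FPKM, the 5 of highest RNA level, and from each gene list the 3 of highest RNA level and up to 6 captured at both times. Some genes that the rule names are not reported here. Other genes of the called bins are named because so few were called. The members and lists were chosen with earlier results of these data known. Promoter sequences are from RefSeq (GRCr8), matched by symbol or synonym. A RefSeq gene was matched for 5225 of 5556 genes, and 4049 had a single promoter entry.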

Additional observations from a re-analysis of the deposited data

Results flagged for a closer look

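In the groups of 4 captured place libraries, 17 of 212 starts and times tested (8.02%) had 1 library that stood apart from the other 3, where chance gives about 1 in 20. Values are RPKM over the 3 bins of a start.

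At 1 h the library was high at Chrm1 (0.716, others 0.619 to 0.632), Tbl1xr1 (0.146, others 0 to 0.0153), Atp5b (0.0307, others 0), Mbd3 (0.0302, others 0), Nudt16l1 (0.0153, others 0), Vamp2 (0.0324, others 0.0149 to 0.0153), Dusp3 (1.19, others 0.573 to 0.648), Cox4i1 (0.0324, others 0) and Ogt (0.0162, others 0), and low at Syp (0, others 0.0298 to 0.0324). At most of these 1 or 2 reads set the library apart, but the gap was wider at Chrm1, Tbl1xr1 and Dusp3.

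At 24 h the library was high at Cic (0.0559, others 0.0126 to 0.0197), Ndufs6 (0.671, others 0.495 to 0.518), Snap25 (0.373, others 0.328 to 0.335) and Uqcr10 (0.540, others 0.429 to 0.443). It was low at Tbl1xr1 (0.205, others 0.290 to 0.305), Psmb7 (0.0186, others 0.0560 to 0.0631) and ENSRNOG00000050398 (0.626, others 0.964 to 1.02). Replicate 1 was the library that stood apart in 5 of these 7.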

How the results depend on the processing

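Captured against input. Counts are of included starts or bins, higher then lower. With genes of at least 5 FPKM, the bins higher numbered 2163 at 1 h and 2289 at 24 h and the starts higher 900 at 24 h. With at least 30 FPKM they were 546 and 4019 bins and 227 and 1468 starts at 1 h, and 548 and 3302 bins and 216 and 1272 starts at 24 h. These sets hold more or fewer genes. Windows with more or fewer bins gave 2397 and 17692 bins at 1 h and 2573 and 15297 at 24 h with 1000 nt on either side of the start, and 6018 bins lower at 24 h with 250 nt. With spans of 2000 nt or more 352 and 348 starts were higher, the shorter models left out being higher at both times in 40.1%. With equal medians there were 2261 bins higher at 1 h, 1272 and 2568 starts at 1 h, and 951 starts higher at 24 h. A filter of 0.5 RPKM left 193 bins and 51 starts lower at 1 h, and 515 and 5 bins and 132 and 1 starts at 24 h, since starts with little captured DNA do not reach it. Leaving out 1 library gave 1346 to 1432 and 11064 to 11444 bins and 543 to 590 and 4123 to 4222 starts at 1 h, and 1316 to 1495 and 8661 to 9309 bins and 528 to 588 and 3505 to 3658 starts at 24 h.

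Group contrasts. For threat against place at 1 h, bins numbered 1 with 250 nt and with a pseudocount of 0.1, and 0 with equal medians and with bins of at least 0.1 or 1 RPKM without the input criterion. At 24 h they numbered 17 and 2 with at least 5 and 30 FPKM, 15 with 1000 nt, 16 with a pseudocount of 1, 0 with equal medians, 2 and 1 from 0.1 and 1 RPKM without the input criterion, and 18 by edgeR. Over starts there was 1 for threat against naive at 1 h with at least 5 FPKM, 2 for place against naive at 1 h without a filter, 1 at 24 h with 250 nt, and 9 for threat against place at 24 h with a filter of 0.5 RPKM; the cause was not tested. Leaving out 1 library gave 0 to 25 bins for threat against naive at 1 h, with 25 without threat replicate 3 and 1 without place replicate 4. It gave 0 to 12 for threat against place at 1 h and 0 to 22 at 24 h, and 0 to 4 for threat against naive at 24 h, with 4, 2 and 1 without threat replicate 1, threat replicate 3 and naive replicate 1. Place against naive stayed at 0 to 0 bins at both times. Over starts the ranges at 1 h were 0 to 11 (threat against naive), 0 to 1 (place against naive) and 0 to 4 (threat against place), and at 24 h 0 to 1, 0 to 0 and 0 to 1. Shares over all tested bins or starts were not counted for fits with 1 library left out.

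Replicate numbers. Deviations of same-numbered libraries correlated at -0.149 to 0.0489 at 1 h and -0.0213 to 0.0674 at 24 h, with 0 of 9 pairs over 0.1 at either time, so the libraries were taken to share only a number. With the number as a replicate block, bins called at 24 h numbered 8 for threat against naive and 15 for threat against place, and at 1 h 3 for threat against place. The pairing changed no other count by over 1.5 times.

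Single starts. Of the named starts' log2 differences from input, 13 turned sign. With equal medians these were at 1 h Cox8a (0.28), Psmb4 (0.22), Snap25 (0.55), Cst3 (0.36), C1qa (0.75), Sst (0.17) and Sparcl1 (0.19), and at 24 h Nrgn (0.10) and UBB (0.29). With 1000 nt on either side they were Cnp at 1 h (0.20) and RPS27A (-0.055 at 1 h and -0.0016 at 24 h), and with 250 nt Sgk1 at 1 h (-0.48). Another 13 passed and 30 lost the threshold under some alternative, and 3121 values kept their direction and side.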
